A study of Mus musculus with 11 samples.

Results

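The IL-6 family cytokines, their receptors and the feedback inhibitor gene Socs3 were examined in mouse colon in a model of colitis-associated tumors, in which the carcinogen azoxymethane (AOM) is followed by dextran sodium sulfate (DSS), an agent that injures the epithelium. The genes were chosen by name and not by a limit on their values, though earlier results of these data were known. They are Il6, Il11, Osm and Lif, the receptor genes Il6ra, Il6st, Il11ra1, Osmr and Lifr, and Socs3. Of these 10 genes, 6 are present among the 7868 genes of the table (Il6, Il11, Lif, Osmr, Lifr and Socs3), and 4 are not (Osm, Il6ra, Il6st and Il11ra1). The samples were colon tissue of 11 female wildtype mice, 4 kept naive for the corresponding time and 7 given AOM/DSS. The treated mice received AOM once at 10 mg/kg, then 3 cycles of DSS at 1.5% from day 7 (5 days of DSS and 16 of recovery a cycle), and were killed on day 70. The heading of the table calls the treated tissue tumor and the naive tissue full-thickness colon, while the paper calls the tumors full-thickness. Treatment, tumor growth and any difference in the layers of tissue taken cannot be told apart. Libraries were made by 3′ mRNA sequencing (QuantSeq), which reads transcripts only near their 3′ ends.

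IL-6, IL-11, LIF and oncostatin M all signal through gp130, the shared receptor chain encoded by Il6st. IL-6 and IL-11 first bind their own receptor chains (Il6ra, Il11ra1), while LIF pairs gp130 with the LIF receptor and oncostatin M, in mice, mainly with the oncostatin M receptor. The receptors activate Janus kinases and the transcription factor STAT3, and Socs3, a STAT3 target, binds gp130 and shuts the kinases off. In the gut these cytokines are known to come largely from stromal and immune cells and to act on epithelium, where STAT3 serves repair after injury and tumor growth. The study asked how glia of the gut's nervous system, IL-1 and macrophages interact in colorectal tumors, with IL-6 as a glial product of interest.

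The values are the authors' normalized means of each group. No values per mouse were analysed here, so no spread between mice, no test and no depth can be set beside them, and the ratios below are ratios of means. The table lists the genes whose p in the authors' comparison, not adjusted for the number of genes, was at most 0.05. A listed gene therefore had to differ between the groups, and being listed is not counted as a result here. Genes missing from the table either had a larger p or went untested, so nothing is said of their direction.

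Of the 6 listed members, 5 had a higher mean in AOM/DSS than in naive tissue and 1, Lifr, a lower mean. The ratio was largest for Il11 (33.1-fold higher), then Socs3 (11.6-fold), Il6 (7.21-fold), Lif (4.73-fold) and Osmr (3.12-fold), and Lifr was 1.73-fold lower. At a limit of 2-fold, 5 of 6 were higher and 0 lower, where 31.7% of all listed genes were at least 2-fold higher and 17.1% at least 2-fold lower. Here and in the lists below, genes at 0 in either group count as past this limit. The median log2 ratio was 2.55 over the 6 members and 0.44 over all listed genes. In bulk tissue, more cells of a type and more RNA per cell cannot be told apart, which holds for every gene described here.

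**Figure D1:**
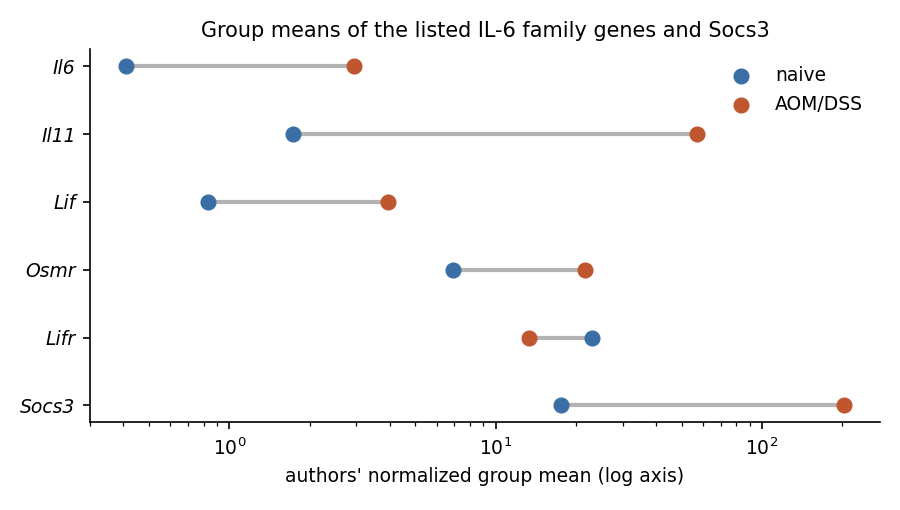
Authors' normalized mean of each listed member in naive (blue) and AOM/DSS tissue (orange) on a log axis, with a grey line joining both means of a gene and no error bars because only means were used. In 5 of 6 genes the AOM/DSS mean lies to the right of the naive mean, and in Lifr (13.4 against 23.1) to its left.

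Among the ligands, Il11 differed most. Il11 encodes interleukin-11, a cytokine known from stromal cells of inflamed tissue. Its authors' mean was 57.2 in AOM/DSS and 1.73 in naive tissue, a log2 ratio of 5.05. Of all listed genes, 656 (8.34%) ranked above Il11, with the 497 genes at 0 in naive tissue counted as above every ratio. Of the 6073 genes whose means were 1 or more in naive and in AOM/DSS tissue, only 28 had a larger ratio. The gene lies on the minus strand of chromosome 7 (chr7:4772373-4782859, GRCm38), with 3 coding transcripts that end at 2 sites.

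Il6 was low in both groups. This gene, for interleukin-6, lies at chr5:30013114-30019981 on the plus strand. It had an authors' mean of 2.95 in AOM/DSS against 0.409 in naive tissue, a difference of 2.54 units and a log2 ratio of 2.85. With 1 added to both means the log2 ratio was 1.49. Lif, which encodes leukemia inhibitory factor, was similarly low, at 3.94 against 0.833 (log2 ratio 2.24, or 1.43 with 1 added to both means). It lies at chr11:4257557-4272514, beside Osm at chr11:4236420-4241026 on the same strand. Osm, the gene of oncostatin M, was not listed.

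The stretches before the start sites of these ligand genes were searched because the ligands stood higher together, so the search was chosen after their values were seen. The motif was the site of AP-1, the Fos and Jun transcription factor, written as TGANTCA, which reads the same on both strands. The family had 12 windows (250 bases before each annotated start), 8 of them of listed members. The motif was present in 3 of the 12, 1 each of Il6, Il11 and Lif, and in 6.75% of all 32851 windows. Sequences are from RefSeq (GRCm38.p6), which gave windows for 9 of the 10 genes, in lower case with the motif in capitals.
Il6 (chr5:30012864-30012886, plus strand, motif from 249 bases before the start): cTGAGTCActtttaaagaaaaaa
Il11 (chr7:4778218-4778254, minus strand, motif from 98 bases before the start): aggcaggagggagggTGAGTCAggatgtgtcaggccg
Lif (chr11:4257325-4257361, plus strand, motif from 228 bases before the start): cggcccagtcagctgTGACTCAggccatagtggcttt
Starts are those of RefSeq. The Il11 stretch belongs to 1 of the 2 annotated starts of that gene and lies in an intron of its longer GENCODE transcripts. A match of letters is a description of the sequence, and binding was not measured.

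The receptor genes went in different directions. Osmr encodes the oncostatin M receptor and lies at chr15:6813577-6874969 on the minus strand. The authors' mean of Osmr was 21.6 in AOM/DSS and 6.93 in naive tissue, 3.12-fold higher. Lifr, the gene of the LIF receptor, lies on the same chromosome (chr15:7090614-7197489, plus strand). Lifr was the only listed member with a lower mean in AOM/DSS, at 13.4 against 23.1, a log2 ratio of −0.79. Of all listed genes 1751 (22.3%) ranked below Lifr, with the 67 genes at 0 in AOM/DSS tissue counted as below every ratio. The pair thus differed in direction, Osmr with a log2 ratio of 1.64 and Lifr of −0.79, and the difference between them was not tested. Lif and Lifr, a ligand and its receptor, likewise stood on opposite sides, 4.73-fold higher and 1.73-fold lower. The chains that bind IL-6 and IL-11 first (Il6ra and Il11ra1) and gp130 itself (Il6st) were not listed. Reads of Il11ra1 could also be split with near-identical mouse copies of that gene, so no weight is placed on its absence.

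The authors' mean of Socs3 was 203 in AOM/DSS tissue and 17.5 in naive tissue, a difference of 186 units and a log2 ratio of 3.54. Socs3 encodes suppressor of cytokine signaling 3 and lies at chr11:117966079-117970047 on the minus strand, as a single coding transcript. Of the 6073 genes whose means were 1 or more in naive and in AOM/DSS tissue, 86 had a larger ratio. Adding 1 to both means changed its log2 ratio to 3.46, against 1.51 for Osmr and −0.75 for Lifr. With that addition the order of the lower-ranked members changed, as Osmr (1.51), Il6 (1.49) and Lif (1.43) then lay close together. Which neighbours in the order differ beyond the spread between mice cannot be said from means.

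The window before the Socs3 start was searched for the STAT site TTCNNNGAA, which also reads the same on both strands, because Socs3 is a textbook STAT3 target. Of the 12 windows of the family, 8 of them of listed members, 1 held it, that of Socs3, and 7.02% of all windows did. The family thus lay near the share of all windows, and no result is drawn from it. The match describes letters only, and binding of STAT3 was not measured. The stretch is shown from RefSeq (GRCm38.p6), with the match in capitals. It is counted from the RefSeq start at position 117969366, which lies inside the GENCODE gene, so the stretch falls within the coordinates given above, in an intron of a noncoding GENCODE transcript.
Socs3 (chr11:117969497-117969535, minus strand, match from 154 bases before the start): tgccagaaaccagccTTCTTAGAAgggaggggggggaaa

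**Figure D2:**
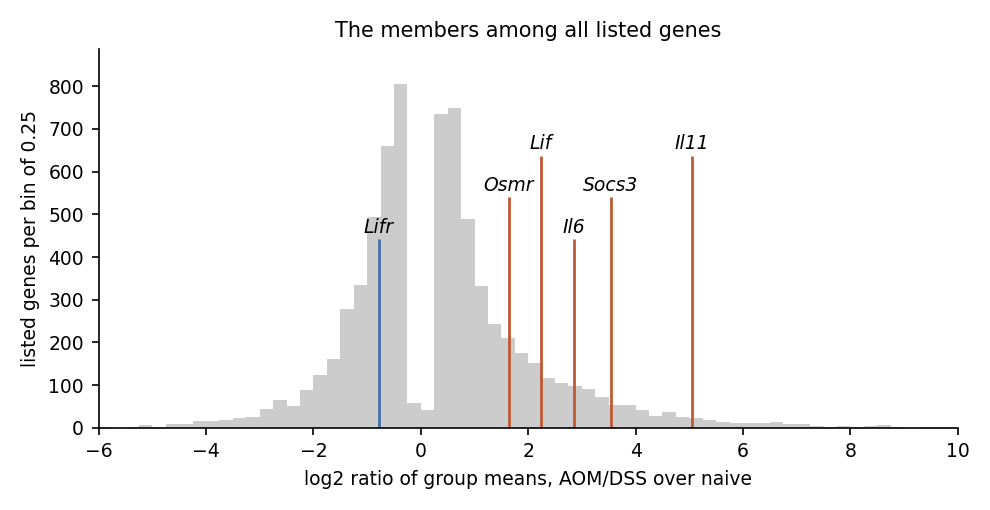
Distribution of the log2 ratio of group means (x axis) over listed genes in bins of 0.25 (y axis, number of genes), with the 6 members as vertical lines whose height carries no value. Il11 (5.05) and Socs3 (3.54) lie in the right tail and Lifr (−0.79) in the main body of genes with lower means, while 564 genes at 0 in either group and 14 beyond the axis are not drawn.

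For each member the 3 listed genes nearest to it in the pair of log2 group means were identified, a likeness over 2 values only. Nearest to Il11 were Pnliprp1, Mmp13 and Cd79a, at distances of 0.22 to 0.29 log2 units. Mmp13, a collagenase gene, stood at 67.9 against 1.72 and Cd79a, of the B cell receptor, at 53.7 against 2.09. Il6 lay nearest to Gm49339, Chac1 and Siglece (up to 0.121) and Lif to Tead4, Itgae and 6330562C20Rik (up to 0.138). Ms4a6b, Wipf3 and Gm20559 lay up to 0.0512 from Osmr, and Map3k21, Rxylt1 and Srr up to 0.0436 from Lifr. Socs3 had no neighbour as close, since Iigp1, Srgn and Fabp5 lay 0.46 to 0.56 log2 units away.

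The rest of the pathway was followed in 9 lists with 98 genes that are not members. Of these, 60 were listed, 41 (68.3%) of them at least 2-fold higher and 1 (1.67%) at least 2-fold lower in AOM/DSS, beside 31.7% and 17.1% of all listed genes. Their median log2 ratio was 1.76. No list was tested as a set, and some genes of these lists are also markers of cell types treated further on.

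Other ligands that were grouped with the gp130 family were higher where listed. Of 6, 3 were listed and all 3 were at least 2-fold higher. Clcf1, a cytokine that signals through gp130 and the LIF receptor, stood at 9.27 against 1.05, 8.81-fold higher. The subunit genes Il27 (2.31 against 0.541) and Ebi3 (7.22 against 2.28), which together make IL-27, were higher as well. Ctf1, Cntf and Il31 were not listed, nor were the 3 further receptor genes of the family (Cntfr, Il27ra and Il31ra).

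Genes for release of the soluble IL-6 receptor had a median log2 ratio of 0.69, beside 0.44 over all listed genes. ADAM17 is the main protease that sheds this receptor from mouse cells under stimulation, and iRhom2, encoded by Rhbdf2, controls its maturation. All 4 genes of this list were listed and higher, from 1.40-fold for Adam10 (75.3 against 54.0) to 2.25-fold for Rhbdf2 (11.1 against 4.92), the only one of them past 2-fold. Adam17 itself stood at 62.6 against 35.2, 1.78-fold higher, and Rhbdf1, which encodes iRhom1, at 32.1 against 21.9.

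Of the genes for Janus kinases, STATs and the phosphatase Shp2, 5 of 11 were listed, all higher and 3 of them at least 2-fold. Stat3, which carries the signal of gp130, was 1.73-fold higher (348 against 201). Stat4 (6.21 against 0.519) and Jak3 (16.6 against 5.03), both best known from lymphocytes, were 12.0-fold and 3.30-fold higher. Stat2, which carries type I interferon signals, was 2.50-fold higher (33.0 against 13.2). Jak1, Jak2 and Tyk2, the kinases that gp130 uses, were not listed.

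Socs3 was not the only SOCS gene that differed. Socs1, an inhibitor of interferon signaling, stood at 26.7 against 3.93, 6.79-fold higher. Socs2, best known as an inhibitor of growth hormone signaling, was lower, at 51.8 against 88.5, or 1.71-fold. Cish (22.8 against 12.7) and Socs6 (29.4 against 21.8) were under 2-fold higher, and Socs4, Socs5 and Socs7 were not listed. Among the phosphatase genes of the same list Ptpn6, which encodes Shp1 of blood cells, was 2.61-fold and Ptpn1 2.17-fold higher, and Ptpn2 and the 4 PIAS genes were not listed. In this list of 14, 6 were listed, with 3 at least 2-fold higher and 0 at least 2-fold lower.

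Most textbook STAT3 target genes had higher means. Of 18, 14 were listed, 13 of them higher, 9 at least 2-fold, and Mcl1, a survival gene, was 1.36-fold lower (243 against 330). Lrg1, a secreted glycoprotein of the acute phase, had the largest ratio at 275 against 5.92, 46.4-fold higher. Timp1, an inhibitor of matrix proteases, followed at 27.9 against 2.61 (10.7-fold) and the adhesion molecule gene Icam1 at 52.7 against 5.33 (9.88-fold). The kinase gene Pim1 stood at 114 against 19.2, 5.94-fold higher. Several of these genes also respond to NF-κB or other factors. Fos, Myc, Pim2 and Vegfa were not listed.

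The list of acute-phase genes and antimicrobial genes known to respond to STAT3 had the highest median of these lists. Its log2 ratio was 6.24 over the 11 of 17 that were listed, all of them at least 2-fold higher. Dependence on STAT3 was not tested here, and S100a8 and S100a9 also stand in the neutrophil marker list below. S100a9 and S100a8, the calprotectin genes of neutrophils, stood at 397 against 1.08 and 451 against 1.50. Saa3, a serum amyloid A made in tissue, had a mean of 315 against 0.874, and Lcn2, which binds bacterial siderophores, of 113 against 1.50. The lectin genes Reg3g (139) and Reg3b (80.1) were listed at 0 in naive tissue, so no ratio is given. The fibrinogen genes Fga, Fgb and Fgg and the gene Crp, made mainly in liver, were not listed, and neither were Saa1 and Saa2.

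**Figure D3:**
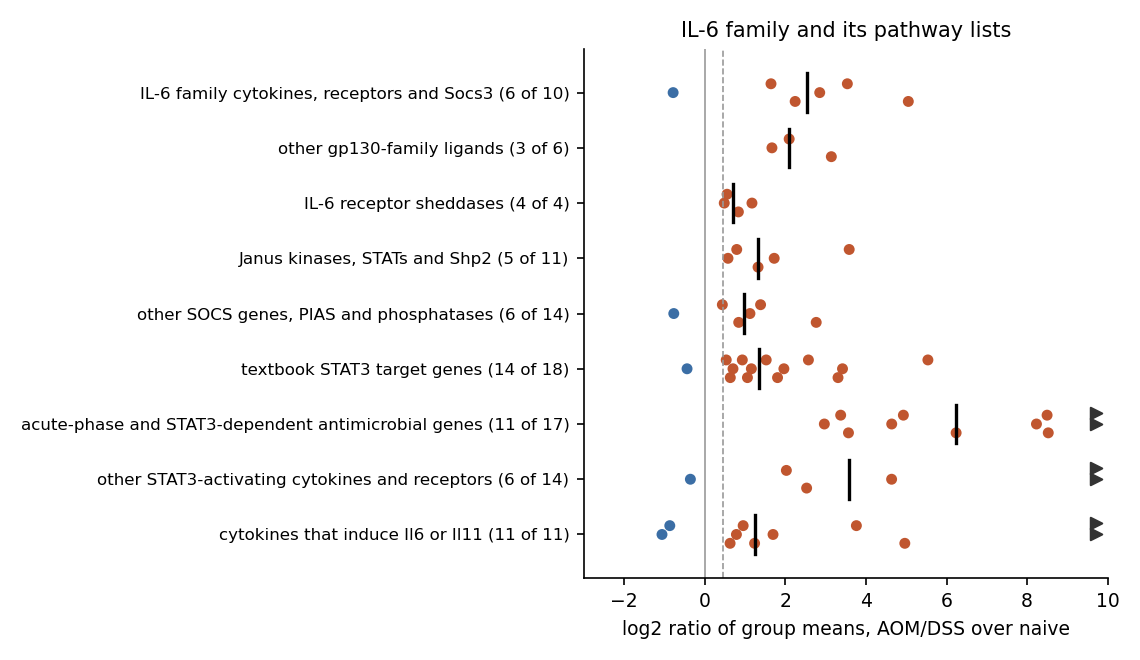
Log2 ratio of group means (x axis) of every listed gene of the members' list and of 8 pathway lists (rows, with the number listed of the number in the list), where a black bar marks a list's median, the dashed line the median of all listed genes (0.44) and triangles genes at 0 in naive tissue. Acute-phase and antimicrobial genes lie farthest to the right (median 6.24), and blue points, lower in AOM/DSS, are few, Lifr among them.

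Other cytokines can also activate STAT3 and raise Socs3, and some of these differed too. Of 14 such cytokine and receptor genes 6 were listed, 5 of them at least 2-fold higher, where 31.7% of all listed genes were. With means of at least 1 in both groups, 2 of these 5 remained. Csf3r also stands in the neutrophil marker list below. Csf3, the gene of G-CSF, was listed at 0 in naive tissue and at 1.22 in AOM/DSS, and its receptor Csf3r stood at 22.5 against 0.904, 24.8-fold higher. Il22, a lymphocyte cytokine that acts on epithelium, was near the bottom of the scale at 0.161 and listed at 0 in naive tissue. Il21r (17.8 against 3.08) and Il10ra (13.9 against 3.43) were higher, and Il10rb, shared by the IL-10 and IL-22 receptors, was 1.28-fold lower (39.6 against 50.8). Il10, Il21 and Il23a were not listed. The part that IL-22 or G-CSF may have in the Socs3 value was not tested.

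The list of cytokines that induce Il6 or Il11, with their receptor genes and Il1rn, had all 11 genes listed. Il1rn, whose product blocks IL-1 at its receptor, stood at 111 against 57.3. Il1b stood at 172 against 5.50 (31.2-fold higher) and Tnf, tumor necrosis factor, at 14.0 against 1.03 (13.6-fold). Il1r1, the receptor gene of IL-1, was 3.23-fold higher (23.4 against 7.24). Il1a (3.14) and Il17a (0.754) were listed at 0 in naive tissue. The TGF-β genes, which can induce Il11 in fibroblasts, went in different directions, with Tgfb1 2.35-fold higher (21.5 against 9.13), Tgfb2 1.83-fold lower (12.1 against 22.1) and Tgfb3 2.09-fold lower (13.8 against 28.8). The latter was the only pathway gene at least 2-fold lower.

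Markers of cell types that could produce or receive these cytokines also differed between the tissues. The fibroblast list had 4 of 10 genes listed, all higher but none 2-fold, with Col1a1 at 809 against 484 and the sum of the 4 means at 1460 against 932. Pdgfra, Pdgfrb, Dcn, Lum, Col3a1 and Fap were not listed. The largest ratio in this fibroblast list was 1.80-fold (Pdpn, 38.6 against 21.4). Macrophage and monocyte genes were all higher where listed (5 of 7), with a summed mean of 1357 against 563, and Ly6c2, of inflammatory monocytes, showed the largest ratio (67.3 against 5.01). Neutrophil markers had a median log2 ratio of 5.11, or 3.49 with 1 added to both means, beside 3.95 and 3.51 for B and plasma cell markers. Of the neutrophil markers, 6 of 6 were at least 2-fold higher, with a summed mean of 965 against 12.2. T cell (5 of 5) and B and plasma cell markers (5 of 5) were at least 2-fold higher too. Over all listed genes this share was 31.7%. With means of at least 1 in both groups, 1 T cell marker and 3 B and plasma cell markers remained. Summed means were 36.9 against 3.06 for T cells and 1735 against 166 for B and plasma cells. Cd8a, a T cell marker, was listed at 0 in naive tissue and at 2.45 in AOM/DSS.

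Genes of glia and muscle were lower. Of 5 enteric glia markers 3 were listed and all had lower means. S100b stood at 4.47 against 13.6, Foxd3 at 0.574 against 1.56 and Erbb3 at 47.8 against 63.5. Erbb3 made up most of the summed mean of 52.9 against 78.7, and its fold difference, 1.33-fold lower, was the smallest of the 3. Bulk means do not show which cells Erbb3 came from, so this sum cannot be read as glial RNA alone. Foxd3 was low in both groups. The median log2 ratio of these 3 markers was −1.45, or −0.70 with 1 added to both means. Sox10 and Gfap were not listed. Bulk means do not give Il6 per glial cell, and the cell source of Il6 was not tested here. The paper reports increased Il6 in glia sorted from AOM/DSS tumors of reporter mice, against glia of healthy colon. It also reports IL-6 protein in labelled glia of such tumors, and lower tumor Il6 where glia lacked Il1r1. From AOM/DSS tumors against naive tissue it describes higher expression of its tumor glia markers. Elsewhere it names Lcn2 and Timp1 as such markers, and both had higher means here. All 6 smooth muscle genes were at least 2-fold lower, with a summed mean of 4152 against 10149. Endothelial markers were higher (4 of 5, none 2-fold, summed mean 163 against 90.2). Of 6 epithelial markers only Krt8 (1.45-fold) and Vil1 (1.32-fold) were listed, both lower, so the labelled tissue could be checked against few of them. The part that a change in cell makeup has in the values of Il6, Il11, Lif, Osmr, Lifr and Socs3 was not tested.

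**Figure D4:**
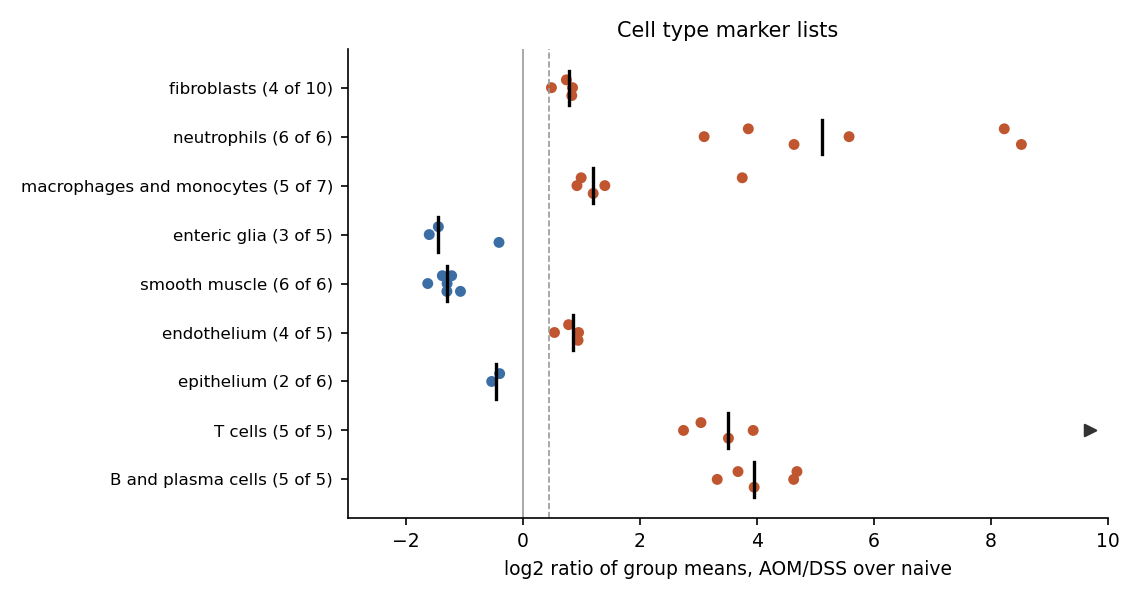
Log2 ratio of group means (x axis) of every listed marker gene in 9 cell type lists (rows, with the number listed of the number in the list), with list medians as black bars, the median of all listed genes (0.44) as a dashed line and a triangle for a gene at 0 in naive tissue. Neutrophil markers have the rightmost median (5.11) without an added constant, while with 1 added theirs (3.49) and that of B and plasma cells (3.51) are close, and smooth muscle (−1.30) and enteric glia markers (−1.45, or −0.70 with 1 added) lie left of 0.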

How the data were processed

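Colon RNA of 4 naive and 7 AOM/DSS mice was sequenced from the 3′ end. Per the study's methods and the submitters' processing notes, the authors used cutadapt for trimming and STAR for alignment to mm10, quantified Ensembl transcripts, normalized gene counts and compared groups in Partek Flow. The sources used here do not name the normalization. The deposited signal used is a normalized least-squares mean per group, with no values per sample, so depth and replicate error are unknown. The authors' p-value column was read only to check that 0 of 7868 rows exceed 0.05. The columns with their adjusted p and fold hold their own comparison and were not used.

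Ratios of both means were computed in Python 3.11.15 (pandas 2.3.3, numpy 2.4.6), checked on simulated means with known ratios. A mean within 1e-06 of 0.0001 stood for 0 (497 genes in naive, 67 in AOM/DSS), gave no ratio and ranked beyond all ratios in medians and ranks. Counts used a limit of 2-fold and took genes at 0 in either group as past it. GENCODE M21 (GRCm38, the build named mm10) held 7727 of the gene names. Named were all 10 genes of the rule, up to 4 genes of each pathway list in each direction with the largest ratios and a mean of at least 1 in the higher group, genes at 0 in a group, and the 3 nearest genes of each member. Others were named from the lists after their values were seen. A few genes of the pathway and marker lists were left out of them and are not reported here. Members and lists were chosen with earlier results of these data known.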

Additional observations from a re-analysis of the deposited data

How the results depend on the processing

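Each member kept its direction with 1 or 0.1 added to both means and with ratios centred on the median of all listed genes (0.44). With 1 added, the log2 ratio of Il6 went from 2.85 to 1.49, of Il11 from 5.05 to 4.42 and of Lif from 2.24 to 1.43, moves of over 1.5-fold that come from their low naive means. Restricting to means of at least 1 in both groups left 3 members at least 2-fold higher in place of 5, since Il6 and Lif drop out. A limit of 1.5-fold, or centring, brought 1 member, Lifr, past the limit as lower in place of 0. Of the pathway genes together, 3 were past the limit as lower at 1.5-fold or with centring and 0 at 4-fold, in place of 1. With 1 added, the median of the members went from 2.55 to 1.50, of neutrophil markers from 5.11 to 3.49, of T cell markers from 3.51 to 1.79, of enteric glia markers from −1.45 to −0.70, of other STAT3-activating genes from 3.58 to 1.45, of other gp130 ligands from 2.09 to 1.33 and of acute-phase genes from 6.24 to 5.51. With centring, the genes at least 2-fold higher went from 3 to 1 in the list of other SOCS genes and phosphatases and in that of macrophages, and from 1 to 0 among the sheddases, and the genes at least 2-fold lower from 0 to 1 in the former list and from 1 to 2 among inducers of Il6 or Il11. With means of at least 1 in both groups or 1 added, 1 glia marker in place of 2 was at least 2-fold lower. With means of at least 1 in both groups, 6 acute-phase genes in place of 11 were at least 2-fold higher. Other STAT3-activating genes went from 5 to 2, T cell markers from 5 to 1 and B and plasma cell markers from 5 to 3. At a 4-fold limit, 4 STAT3 targets in place of 9 were higher. Lists of Janus kinases, other SOCS genes and macrophages then had 1 higher in place of 3. Smooth muscle genes past 4-fold as lower were 0 in place of 6. No paired analysis was possible because the table holds only group means, and for the same reason no replicate could be left out. What depth limits cannot be said, because no counts were analysed here.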
